A study of Mus musculus with 4 samples.

Results

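N6-methyladenosine (m6A) peaks were examined on the transcripts of 9 mouse genes, namely Smad1, Smad2, Smad3, Smad4, Smad5, Smad6 and Smad7 and the genes of the corepressors Ski and Skil (SnoN). The genes were chosen by name, with earlier results of these data known, from the 21938 protein-coding genes of GENCODE M21 on GRCm38. A gene was counted as carrying a peak when the summit of the peak, its position of highest signal, lay in one of its exons. By this rule 14 of 15635 peaks in replicate 1 and 17 of 14872 in replicate 2 belonged to the 9 genes. m6A meRIP-seq, in which fragments of RNA carrying m6A are pulled down with an antibody and sequenced beside unselected input RNA, was performed on c-Kit+ hematopoietic cells. The 4 samples were replicates 1 and 2 of the immunoprecipitation (IP) and of the input, and peaks of the IP replicates were analysed. The cells came from C57BL/6 foetal liver and were enriched for Kit, a receptor of stem and progenitor cells, with magnetic beads. Per the methods they were Ythdf2CTL, that is Ythdf2 fl/fl cells in which both Ythdf2 copies carried loxP sites and a GFP tag and no Cre was present. Thus every sample had the tagged, functional Ythdf2 and no group lacked it. The stage of the embryos and the number of animals per replicate are not given in the sources used here.

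Smad proteins carry signals of the TGF-β family from the membrane to the nucleus. Activated type I receptors phosphorylate the receptor-regulated Smads, Smad1 and Smad5 for BMP signals and Smad2 and Smad3 for TGF-β and activin signals, which then bind the common partner Smad4 and act on target genes. Smad6 and Smad7 inhibit the pathway at the receptors, Ski and Skil repress transcription together with Smad complexes, and in blood formation TGF-β is known to restrain the division of stem cells. m6A is placed on adenosines within the DRACH sequence (R stands for A or G, D for any base but C, H for any base but G), most often GGAC, typically near stop codons and in long exons, and YTHDF2 binds it and promotes decay of the transcript.

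The sequences below, shown because they hold each GGAC whose A lay within 50 nt of a summit in Smad1, Smad3, Smad5, Smad6, Ski and Skil, whatever the strength of the peak, were read from GRCm38 in the sense of the transcript, with GGAC in capitals. In Smad1, Smad3, Smad5 and Ski a GGAC lay inside the peaks of both replicates at these places. The Smad6 sites lay in a peak of replicate 2 only, the last Ski site in a peak of replicate 1 only, and the Skil site lay in the exon before the one that held the peak.
Smad1, start region, chr8:79372068-79372092, minus strand: agaaagctgtGGACgctttggtgaa
Smad1, stop region, chr8:79339577-79339601, minus strand: cttgaaggatGGACaagtcagacag
Smad5, 5′ UTR, chr13:56723482-56723506, plus strand: gcctccacttGGACtttctgcttaa
Smad3, 3′ UTR, chr9:63648765-63648789, minus strand: gatggtctgtGGACtgctgcttcag
Smad3, 3′ UTR, chr9:63647281-63647305, minus strand: aatttctttaGGACagttgtaaagg
Smad3, 3′ UTR, chr9:63647254-63647278, minus strand: tctctcctgaGGACaatgacttgga
Smad6, coding, chr9:64020618-64020642, minus strand: tctccgaacgGGACgcagcaggcgc
Smad6, coding, chr9:64020597-64020621, minus strand: gcgcgccccgGGACtctggcgatcc
Ski, coding, chr4:155221698-155221722, minus strand: ctggagaaccGGACctgccactggg
Ski, 3′ UTR, chr4:155155854-155155878, minus strand: acgacctcaaGGACtgtggcctgca
Skil, coding, chr3:31117560-31117584, plus strand: ccttggagaaGGACagggaggccga
Of these 11 sites, 5 lay in coding sequence, 5 in a 3′ UTR and 1 in a 5′ UTR. The word was followed by T, giving GGACT, in 4 of them. The Smad1 word of the start region and the Smad6 word on the summit itself were followed by G and so were no DRACH words.

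Longer windows are shown for the coding peaks of Ski and Skil. Both paralogs had a strong peak with its summit well inside the coding sequence, and only the Ski summit had a GGAC near it. Each window holds 101 nt of the coding exon around the replicate 2 summit. In Ski the capitals mark GGAC, and in Skil, which had no GGAC in the window, they mark its 3 DRACH words.
Ski, exon 1, chr4:155221703-155221803, minus strand: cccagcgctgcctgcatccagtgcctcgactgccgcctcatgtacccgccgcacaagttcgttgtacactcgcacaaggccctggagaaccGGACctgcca
Skil, exon 2, chr3:31097944-31098044, plus strand: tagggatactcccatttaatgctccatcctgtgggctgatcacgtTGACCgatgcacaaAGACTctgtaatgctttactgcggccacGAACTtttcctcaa
GC content was 64.4% in the Ski window and 47.5% in the Skil window. The summit fell in codon 256 of Ski and in codon 222 of Skil.

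Peaks were found on 7 of the 9 genes in both replicates, namely Smad1, Smad2, Smad3, Smad5, Smad7, Ski and Skil, where 30.9% of all protein-coding genes had a peak in both. Smad4 and Smad6 had 1 peak each, in replicate 2. All 9 genes therefore had a peak in at least 1 replicate, beside 37.1% of protein-coding genes. The peak lists hold no expression levels, so a gene without a peak may have had few transcripts or little m6A, and fewer cells of a type or less RNA per cell cannot be told apart from less m6A. The chosen transcripts of the 9 genes were also long, with a median of 5090 nt against 2544 nt over all protein-coding genes and 3340.5 nt over those with a peak in both replicates. Their GGAC density was not high, at a median of 3.65 per kb against 4.002 over all protein-coding genes. The part of length and of expression in the count was not tested.

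**Figure D1:**
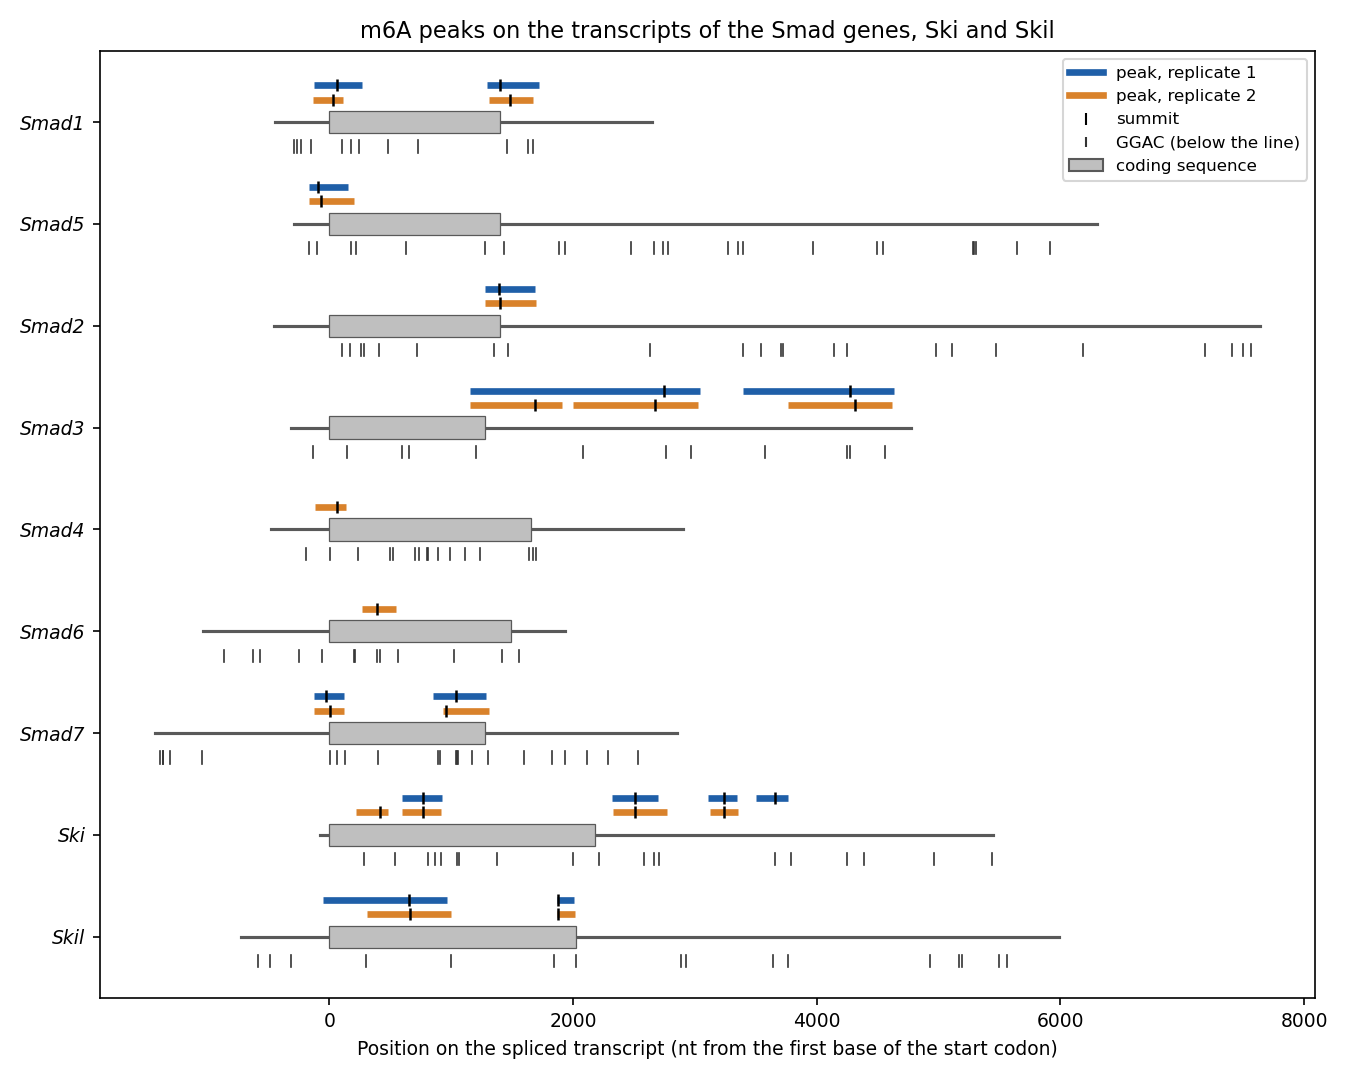
Peaks on the spliced transcript of each gene, with the position in nt from the first base of the start codon on the horizontal axis. Grey boxes are coding sequences, blue and orange bars the peaks of replicates 1 and 2, black ticks on the bars the summits and ticks under the line GGAC words, and the parts of a peak in introns are left out. Smad3 had 2 and 3 long peaks that covered most of its 3′ UTR, Ski had 4 peaks in each replicate, and Smad4 and Smad6 had a peak in replicate 2 only.

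The fold enrichment was the ratio of IP signal to local background at the summit, with 1 added to each before division. Its median was 5.79 over 14 peaks in replicate 1 (range 3.25 to 10.8). In replicate 2 it was 4.78 over 17 peaks (range 2.51 to 14.9). Over all exonic peaks it was 4.18 and 4.39. The peaks of Smad2 in both replicates and the coding peak of Smad7 in replicate 2 were below these medians, and so, by less, were the 2 weaker Smad3 peaks of replicate 2 and the weakest Ski peak of each replicate. Median −log10 q, where q is the p-value of the peak adjusted over the genome, was 21.6 and 19.3, against 16.1 and 15.8 over all exonic peaks. The background is given in units of control reads, is not a count of reads at the summit and can be fractional. At the median summit, 51.5 and 51 IP reads lay over a background of 9.50 and 8 control reads. These reads were fewer than over all exonic peaks, where the medians were 68 and 66 IP reads over 17 and 13 control reads.

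**Figure D2:**
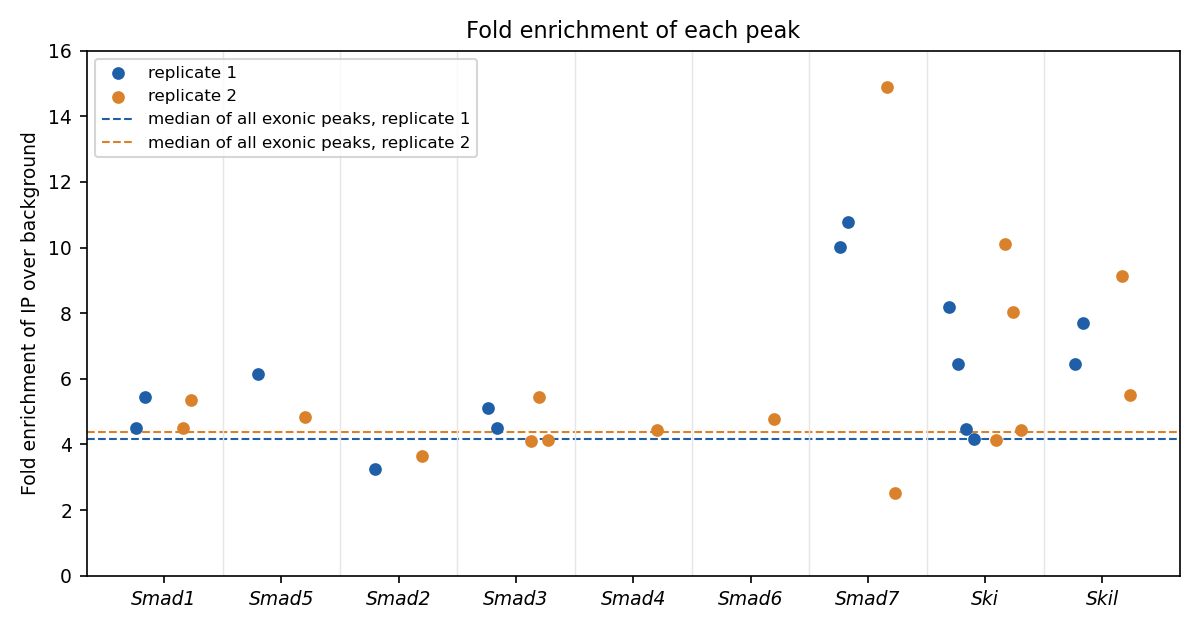
Fold enrichment of IP over background (vertical axis, a ratio) of every peak of each gene, with replicate 1 in blue and replicate 2 in orange. Within a gene the points of each replicate follow the order of the peaks along the transcript. Dashed lines mark the medians of all exonic peaks, 4.18 and 4.39. All points of Smad1, Smad5 and Skil lay above the line of their replicate, and those of Smad2 lay below it.

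Smad1 and Smad5 transduce BMP signals and have coding sequences of the same length, 1395 nt. Smad1 (chromosome 8, minus strand, 7 exons) had 2 peaks per replicate, at either end of the coding sequence. In replicate 1 the peak at the stop codon, in the last exon, spanned 79339322 to 79339755 and had a fold enrichment of 5.45 (−log10 q 13.2, 33 IP reads over 6 control reads). In replicate 2 it spanned 79339377 to 79339738 with 5.36-fold enrichment (−log10 q 15.4, 44 IP reads over 7). The summits lay 4 and 89 nt downstream of the first base of the stop codon, and this distance of 85 nt between replicates was the longest of all pairs in the 9 genes.

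The peak of Smad1 near the start codon, in exon 2, spanned 79371919 to 79372306 in replicate 1 and 79372071 to 79372314 in replicate 2. Its fold enrichment was 4.50 in replicate 1 and 4.49 in replicate 2 (−log10 q 9.92 and 9.41, from 31 and 32 IP reads). The summits lay 66 and 31 nt downstream of the start codon. The GGAC word shown for this place lay 37 and 72 nt beyond the summits, inside both peaks. Peaks held 3 of the 12 GGAC words of the Smad1 transcript in both replicates.

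Smad5 (chromosome 13, plus strand, 7 exons) had 1 peak per replicate although its transcript of 6584 nt was longer than that of Smad1, at 3099 nt. The peak began in the intron before exon 2 and, within that exon, ran across the start codon, at 56723340 to 56723744 in replicate 1 and 56723354 to 56723799 in replicate 2. Fold enrichment was 6.13 in replicate 1 (−log10 q 21.01, 48 IP reads over 8 control reads) and 4.84 in replicate 2 (−log10 q 19.3, 60 over 11). The summits lay 96 and 64 nt upstream of the start codon, with the GGACT shown above at 4 and 36 nt before them. Its 3′ UTR of 4899 nt held no peak, and of the 24 GGAC words of the transcript 2 lay in the peaks of both replicates. Thus a start codon peak was found on both BMP Smads in both replicates, and a stop codon peak on Smad1.

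Among the TGF-β and activin Smads, Smad2 had a single peak per replicate. The gene lies on chromosome 18 (plus strand, 11 exons), and the peak spanned 76304511 to 76305013 in replicate 1 and 76304535 to 76305023 in replicate 2. The fold enrichment of 3.25 in replicate 1 was the lowest of the 14 peaks, yet it rested on 110 IP reads over 38 control reads (−log10 q 22.3). In replicate 2 it was 3.66, from 99 IP reads over 25 control reads (−log10 q 22.4). The background was thus the highest of the 9 genes in each replicate. The summits lay 7 nt upstream and 4 nt downstream of the first base of the stop codon, within the last exon of 6357 nt, whose remaining 3′ UTR had no further peak.

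Smad3 stood out by the length of its peaks. The gene lies on chromosome 9 (minus strand, 9 exons), and all its exonic summits lay in the 3′ UTR, in a last exon of 3619 nt. In replicate 1 a peak of 1991 bp (63648495 to 63650485) began in the intron before the last exon and ran across the stop codon into the 3′ UTR, with a fold enrichment of 5.12 (−log10 q 41.0, 116 IP reads over 25 control reads). In replicate 2 the same stretch held 2 peaks, at 63648515 to 63649541 with 5.45-fold enrichment (−log10 q 38.5, 109 over 18.2) and at 63649628 to 63650442 with 4.10-fold enrichment (−log10 q 22.2, 86 over 19.2). The count of 2 against 3 peaks thus differed by how the stretch was divided. The replicate 1 summit lay 1470 nt past the stop codon, and the replicate 2 summits 1399 and 410 nt past it.

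The distal peak of Smad3 spanned 63646905 to 63648141 in replicate 1 (4.49-fold, −log10 q 27.5, 89 IP reads) and 63646921 to 63647772 in replicate 2 (4.15-fold, −log10 q 22.8, 87 IP reads). Its summits lay 40 nt apart and near the end of the transcript, 2999 and 3039 nt past the stop codon. Together the peaks covered 61.5% of the transcript in replicate 1 and 51.8% in replicate 2. In the other genes this share was at most 26.5% and 22.5%. They held 7 of the 12 GGAC words of Smad3 in both replicates, although its GGAC density of 2.36 per kb was higher than that of only 17.8% of protein-coding genes.

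A further peak lay across the annotated 5′ end of Smad3 and was not counted, because its summit was outside every exon. It spanned 63757961 to 63758237 in replicate 1 and 63757962 to 63758252 in replicate 2, and its summits lay 83 and 117 nt upstream of the annotated 5′ end at 63757994. Fold enrichment was 16.6 in replicate 1 (−log10 q 36.4, 36 IP reads over 1.40 control reads) and 16.7 in replicate 2 (−log10 q 33.3, 34 over 1), above every counted peak of the 9 genes. With so low a background the 1 added to it was a large part of the divisor. A second, weaker peak lay 700 and 772 nt upstream, with 6.40-fold and 4.78-fold enrichment from 11 and 9 IP reads. The lists carry no strand, so the strand of this signal was not known. The 250 bases before the annotated 5′ end are shown because both stronger summits lie within them, in the sense of Smad3 with GGAC in capitals.
Smad3, upstream, chr9:63757995-63758244, minus strand: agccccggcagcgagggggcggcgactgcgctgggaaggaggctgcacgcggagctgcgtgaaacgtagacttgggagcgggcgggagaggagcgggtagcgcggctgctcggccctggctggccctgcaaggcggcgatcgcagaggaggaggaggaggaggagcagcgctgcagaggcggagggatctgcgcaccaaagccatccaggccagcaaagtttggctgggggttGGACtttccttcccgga
GGAC was found once in the sense of Smad3 and 0 times on the other strand, and GC content was 69.2%. The word lay close to the annotated 5′ end, more than 50 nt from both stronger summits. Of 32851 RefSeq promoters of 300 bases, 65.6% held GGAC in the sense of their gene and 87.7% on either strand, so the word is common in such windows.

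Smad4, the partner that all receptor-regulated Smads share, had a peak in replicate 2 and none in replicate 1. The peak spanned 73677777 to 73678024 of chromosome 18 (minus strand), with a fold enrichment of 4.45 (−log10 q 12.1, 41 IP reads over 8 control reads). The summit lay 65 nt downstream of the start codon in exon 2 of 12. This exon of 377 nt was the only exon shorter than 400 nt that held a summit in the 9 genes. None of the 16 GGAC words of Smad4 lay in a peak of both replicates, since there was no second peak, and the nearest was 61 nt from the summit.

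The inhibitory Smads differed from each other. Smad6 (chromosome 9, minus strand, 4 exons) had 1 peak, in replicate 2, at 64020479 to 64020758 in the coding part of exon 1. Its fold enrichment of 4.78 was above the replicate 2 median, but it rested on 9 IP reads (95% Poisson interval 4.12 to 17.1) over 1 control read. Its −log10 q was 3.36, and 3.30% of exonic peaks of the replicate had a lower one. For comparison, peaks of genes called in replicate 2 only had a median −log10 q of 8.90 and 28 IP reads. The summit lay on the adenosine of a GGAC, with a GGACT 21 nt downstream.

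Smad7, which recruits ubiquitin ligases to the receptors, had 2 peaks in each replicate. At the start codon (chromosome 18, plus strand, exon 1 of 4) the peak spanned 75368831 to 75369080 in replicate 1 and 75368829 to 75369078 in replicate 2, so that both edges were 2 bp apart. Fold enrichment was 10.01 in replicate 1, from 16 IP reads (95% Poisson interval 9.15 to 25.98) over 0.8 control reads. In replicate 2 it was 14.9, from 24 IP reads (15.4 to 35.7) over 0.6 control reads. These values were above 95.7% and 99.05% of exonic peaks, on a background of under 1 read. At so low a background the 1 added to it made up most of the divisor. The −log10 q, which depends on the number of reads, was 14.4 and 24.2.

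The second peak of Smad7, in the coding part of its last exon, was the least reproducible of the pairs. In replicate 1 it spanned 75393934 to 75394368 with 10.8-fold enrichment (−log10 q 27.4, 38 IP reads over 3 control reads). In replicate 2 it spanned 75394019 to 75394392 with 2.51-fold enrichment (−log10 q 2.66, 28 IP reads over 10 control reads). IP reads of the replicates had overlapping Poisson intervals, 26.9 to 52.2 and 18.6 to 40.5, while the background differed by more than 3-fold. The summits were 78 nt apart, so the backgrounds were read at different positions. The source of the difference was not tested. The log2 ratio of fold enrichment, replicate 2 over replicate 1, was −2.1, and 99.97% of all pairs of peaks differed by less.

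**Figure D3:**
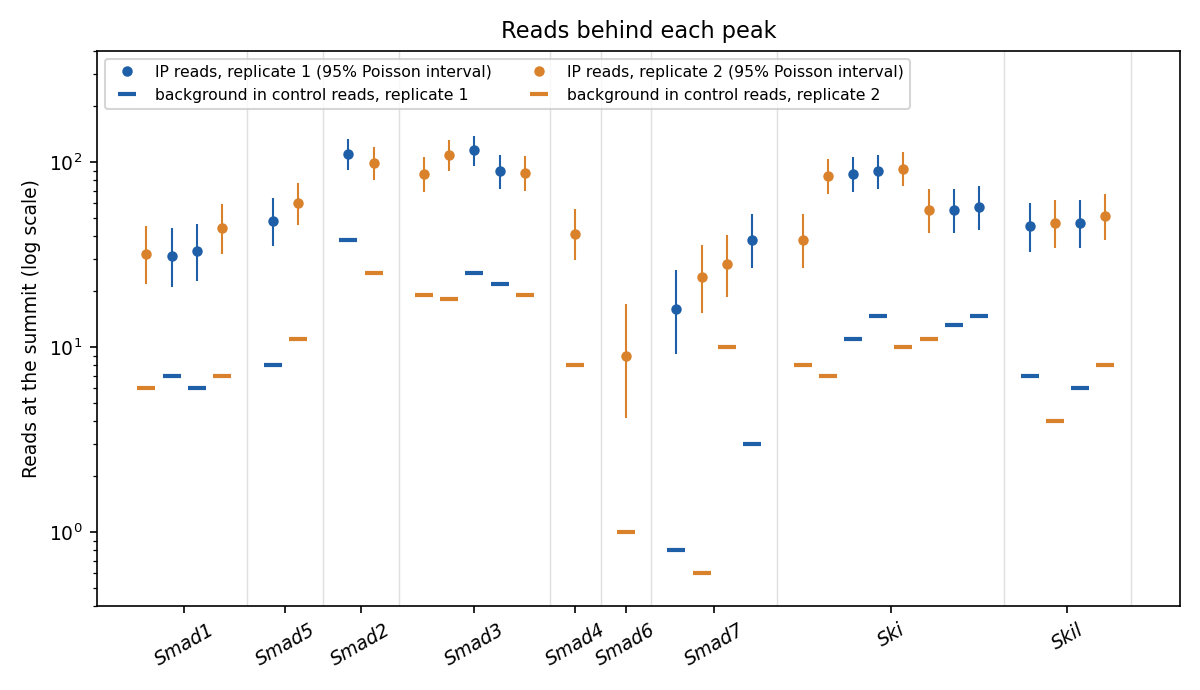
IP reads at each summit with 95% Poisson intervals (points) and the background in control reads (dashes), on a log scale, for every peak in order along the transcript and by gene, with replicate 1 in blue and replicate 2 in orange. Smad2 and Smad3 reached 110 and 116 IP reads in replicate 1 and held every background of at least 18.2 control reads, and Smad6 and the start codon peak of Smad7 rested on 9 to 24 IP reads.

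Ski had the most peaks, 4 in each replicate, where 13.4% and 13.1% of protein-coding genes with a peak had 3 or more. The gene lies on chromosome 4 (minus strand, 7 exons). Its strongest peak, in the coding part of exon 1, spanned 155221598 to 155221922 in replicate 1 and 155221606 to 155221921 in replicate 2. Fold enrichment was 8.20 in replicate 1 (86 IP reads over 11 control reads) and 10.1 in replicate 2 (84 over 7). The −log10 q of 46.4 and 49.4 was the highest of the 9 genes in each replicate, above 95.1% and 97.0% of exonic peaks. The summits lay 6 nt apart, and the GGAC in the Ski window above lay 37 and 43 nt downstream of them.

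In the 3′ UTR of Ski, 2 peaks were shared. The proximal one spanned 155156829 to 155157204 in replicate 1 and 155156757 to 155157193 in replicate 2, with its summit on the same base, 332 nt past the stop codon. Fold enrichment was 6.46 and 8.05, −log10 q 39.5 and 45.9, and the IP reads were 89 and 92. The next peak, at 155156183 to 155156414 and 155156172 to 155156401, had 4.47-fold and 4.44-fold enrichment from 55 IP reads in each replicate, and its summits were 1 nt apart. No GGAC lay within 50 nt of either summit, and the DRACH words there were 4 and 3 of other types, such as AGACT 6 nt before the proximal summit.

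Ski also had 1 peak in each replicate that the other did not have. In replicate 1 it lay in the 3′ UTR at 155155761 to 155156024 (4.16-fold, −log10 q 16.2, 57 IP reads), with a GGACT 2 nt before the summit. In replicate 2 it lay in exon 1 at 155222038 to 155222299 (4.13-fold, −log10 q 10.2, 38 IP reads), with no DRACH word within 50 nt. Both were the weakest peak of Ski in their replicate by fold enrichment. Counts of 4 in each replicate were therefore not the same 4 peaks, as 3 were shared.

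Skil (chromosome 3, plus strand, 7 exons) had 2 peaks in each replicate, both with their summits in coding sequence. The peak in exon 2, of 1717 nt, spanned 31097278 to 31098297 in replicate 1 and 31097641 to 31098331 in replicate 2. Fold enrichment was 6.47 in replicate 1 (−log10 q 20.8, 45 IP reads over 7 control reads) and 9.14 in replicate 2 (−log10 q 27.0, 47 over 4). The left edges were far apart, and the replicate 1 peak began in the 5′ UTR. The summits lay 8 nt from each other. The nearest GGAC was 347 and 339 nt away, and TGACC, the first word in capitals in the Skil window, lay 5 nt after the replicate 1 summit and 3 nt before that of replicate 2.

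The other Skil peak lay at the start of the last exon, at 31118309 to 31118595 in replicate 1 and 31118299 to 31118601 in replicate 2. It began in the intron before this exon, and its summits lay close to the 5′ edge of the exon. The summits, 1 nt apart, were 145 and 144 nt upstream of the stop codon. Fold enrichment was 7.69 in replicate 1 (−log10 q 25.2, 47 IP reads over 6 control reads) and 5.50 in replicate 2 (−log10 q 18.6, 51 over 8). The GGAC closest on the spliced transcript lay 37 and 38 nt before the summits but in exon 6, outside the peak on the genome. Of the 16 GGAC words of Skil, 0 lay in a peak of both replicates, against 5 of 19 in Ski. The Skil 3′ UTR of 3964 nt had no peak, whereas that of Ski had 3 in replicate 1 and 2 in replicate 2.

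The peaks of the 9 genes were then compared between replicates. In replicate 1, 13 of 14 peaks (92.9%, exact 95% interval 66.1 to 99.8) shared at least 1 bp with one of replicate 2. In replicate 2, 14 of 17 peaks (82.4%, 56.6 to 96.2) did so with one of replicate 1. Over all exonic peaks the shares were 84.2% and 86.8%. The intervals take peaks as independent, although several came from the same gene, so no difference was tested with them. Of 12 pairs in which each peak overlapped no other, 11 were within 2-fold in fold enrichment, and over all 11524 such pairs 95.2% were. The exception was the coding peak of Smad7. The fold enrichment was higher in replicate 2 in 5 of the 12 pairs and in 51.6% of all pairs. A common shift was not tested. Summits of a pair lay a median of 21.5 nt apart, against 16 nt over all pairs.

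**Figure D4:**
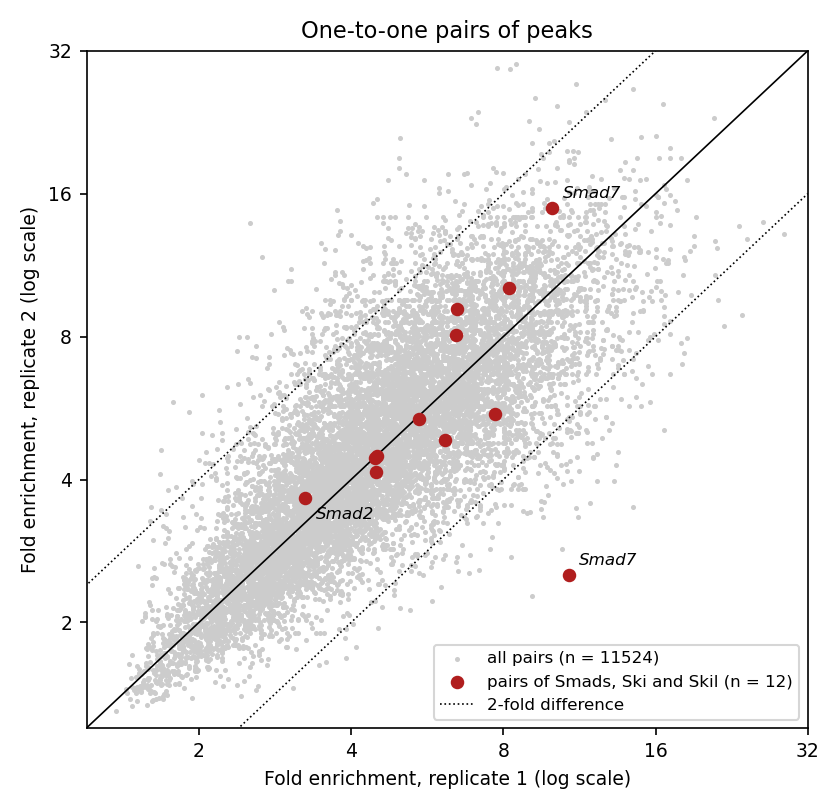
Fold enrichment in replicate 1 (horizontal) against replicate 2 (vertical), both on log scales, for all 11524 one-to-one pairs of overlapping peaks (grey) and the 12 pairs of the Smads, Ski and Skil (red). The solid line marks equal values and dotted lines a 2-fold difference. Of the red points 11 lie within the dotted lines and the coding peak of Smad7, at 10.8 and 2.51, lies outside.

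Summits were also placed by transcript region, taking those within 200 nt of the stop codon, then those within 200 nt of the start codon, and then the rest by coding sequence or UTR. Of the 14 summits in replicate 1, 3 were at the stop codon (Smad1, Smad2 and Skil), 3 at the start codon (Smad1, Smad5 and Smad7), 3 in coding sequence and 5 in the 3′ UTR, the last all in Smad3 and Ski. Of the 17 in replicate 2, there were 3, 4, 5 and 5, with Smad4 added at the start codon. Over all summits placed on 1 transcript, 30.7% and 29.8% were at the stop codon, 14.7% and 15.4% at the start codon, 34.0% and 33.8% in coding sequence, and 17.2% and 17.5% in the 3′ UTR. With so few summits, several of them from the same gene, no difference from these shares was tested. Exons of at least 400 nt held 14 of 14 and 16 of 17 summits, against 86.7% and 86.8% of all placed summits.

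A whole GGAC lay within 50 nt of the summit for 10 of 14 peaks in replicate 1 and 7 of 17 in replicate 2, and for 56.1% and 56.0% of all placed summits. The same word could lie within 50 nt of the summit in 1 replicate and beyond it in the other. In the start codon peak of Smad1, in Smad2 and in the proximal part of Smad3 the same GGAC was within 50 nt in replicate 1 and farther in replicate 2, and in the stop codon peak of Smad1 the reverse held. No DRACH word lay within 50 nt for 0 and 2 peaks, and 93.3% of all placed summits in each replicate had one.

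Other genes of the pathway were then counted from a list of 54, which was chosen with earlier results of these data known. The share over protein-coding genes beside it includes genes that may not have been expressed. Of the 54 genes, 31 had a peak in both replicates (57.4%, beside 30.9% of protein-coding genes), 3 in 1 replicate and 20 in neither. Ligands mostly had none. Of 11, Tgfb1 had a peak in both replicates, with 2.82-fold and 2.74-fold enrichment (−log10 q 27.9 and 24.4), and Gdf11 in replicate 1 only (5.67-fold, 7 IP reads). Of 12 receptors and coreceptors 9 had one in both. Eng (endoglin), a coreceptor, had 4.75-fold and 3.97-fold enrichment, and the activin receptor gene Acvr1b 5.57-fold and 9.84-fold. Tgfbr1, Acvrl1 and Bmpr1b had no peak. Each value is that of the peak with the highest −log10 q in its replicate, which need not be the same peak in both.

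Among 11 regulators of receptors and Smads, 5 had a peak in both replicates. Bambi, a decoy receptor, had 10.3-fold and 6.56-fold enrichment, and Trim33, a nuclear ubiquitin ligase that binds Smads, 3.79-fold and 3.46-fold. Zfyve9 (SARA), which presents Smad2 and Smad3 to the receptor, had a peak in replicate 2 only (6.57-fold, 10 IP reads). The ubiquitin ligase genes Smurf1, Smurf2, Nedd4l and Wwp1 and also Pmepa1 had none. Nuclear partners had a peak in both replicates in 8 of 10 genes, with 6.05-fold and 15.6-fold enrichment on the acetyltransferase gene Ep300. Hdac1 and Foxh1 had none. Of 10 target genes 8 had one in both, among them the transcription factor gene Junb (4.24-fold and 7.56-fold) and Id2, an inhibitor of DNA binding by other factors (5.85-fold and 8.57-fold). The cell cycle inhibitor gene Cdkn2b had a peak in replicate 1 only (6.38-fold, 8 IP reads).

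**Figure D5:**
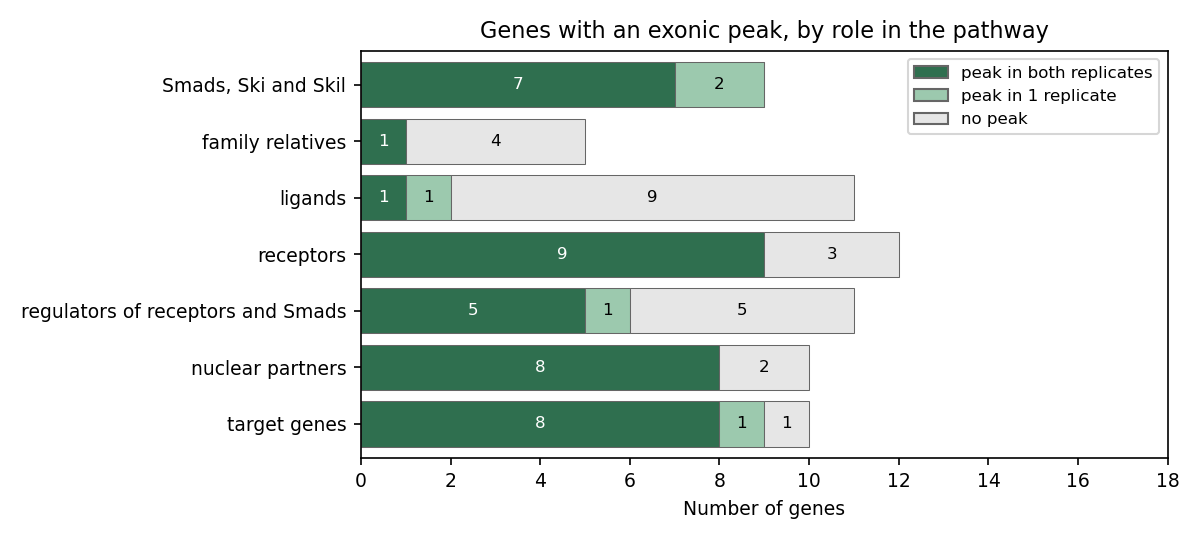
Number of genes (horizontal axis) of each role with a peak in both replicates (dark green), in 1 replicate (light green) or in neither (grey), where family relatives are Smad9, Skor1, Skor2, Dach1 and Dach2. Receptors, nuclear partners and target genes had a peak in both replicates in 9 of 12, 8 of 10 and 8 of 10 genes, and ligands in 1 of 11.

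The labelled cell type could be checked only on transcripts that carry m6A. Of 7 genes that mark Kit+ foetal liver progenitors, Cd34, Gata2, Tal1 and Lmo2 had a peak in both replicates, beside 30.9% of protein-coding genes, and Kit, Myb and Gata1 had none. Of the markers of other cells, Apoa1 of 4 hepatocyte genes (Afp in replicate 1 only), Csf1r of 3 macrophage genes, Kdr of 3 endothelial genes and Cd79a of 3 lymphocyte genes had a peak in both. These counts are near the share over all protein-coding genes, so nothing is read from them about the presence of such cells, and the part of such cells in the peaks of Smad genes was not tested. The weakest peaks of the lists had a −log10 q of 1.31 and 1.30.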

How the data were processed

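Foetal liver c-Kit+ cells were profiled by m6A meRIP-seq in 2 biological replicates. Per the methods and labels, the authors aligned reads to GRCm38 (mm10) with HISAT2 and called peaks in each replicate with MACS2 (2.1.1.20160309, nomodel). The threshold and the control library are not given in the sources used here. The deposited lists give each peak a fold enrichment (a ratio of IP to background), a −log10 p-value, a −log10 q-value, a score derived from q, and a summit offset, all computed by MACS2 for the authors. The score was not used. Depth was not known from the lists. IP reads at each summit, and the local background in units of control reads, were therefore computed from the fold and p by the formulas of MACS2. The background was not a count of reads at the summit and could be fractional. A whole number of IP reads matched the formulas for 100% of peaks (largest difference in −log10 p 0.000342), with 0.874 and 1.05 IP reads per control read. This was tested on simulated data. Poisson and Clopper-Pearson intervals cover counting error only and not variation between animals or libraries. Poisson intervals take reads as independent molecules, so PCR duplicates would make them too narrow. The Clopper-Pearson intervals also take peaks of the same gene as independent.

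Summits were placed in exons of the GENCODE M21 basic set and on the transcript with the longest coding sequence, which 21851 protein-coding genes had. Distances are counted from the first base of the start or stop codon, coordinates from 1. DRACH and GGAC were searched on the sense strand. The sequences of exons and of the region upstream of Smad3 are those of GRCm38, and promoters for the motif count are from RefSeq. Python 3.11.15, pandas 2.3.3 and scipy 1.17.1 were used.

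With 1 group of IP samples no test between groups was possible, and all comparisons are descriptions. The 9 genes, the pathway list and the markers were chosen with earlier results of these data known. All peaks of the 9 genes are named. Of the pathway list, the rule named in each role the 2 genes with the highest −log10 q (the lower of both replicates) among those with a peak in both, and every gene with a peak in 1 replicate only. Some genes without a peak were named in addition, and some genes of the list are not reported here by name. Alternatives were the exon rule, thresholds on q and fold, the transcript set, overlapping genes, the definition of a shared peak, window sizes and leaving out a replicate.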

Additional observations from a re-analysis of the deposited data

Results flagged for a closer look

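A peak across the annotated 5′ end of Smad3 had a higher fold enrichment than any counted peak of the 9 genes and fell outside the counted peaks, because its summit lay upstream of exon 1. Its fold enrichment was 16.6 in replicate 1 and 16.7 in replicate 2, ranks 44 and 75 of the whole lists. The peak had a background of only 1.40 and 1 control reads, and the 1 added to it was a large part of the divisor. It overlapped exon 1 by 34 and 33 bases, and with any overlap of a peak with an exon in place of the summit it was counted, giving 33 peaks in place of 31. Its −log10 q of 36.4 and 33.3 was below that of the strongest peaks of Ski and of the Smad3 3′ UTR. Within 2 kb of the other genes 1 further summit lay outside the gene, 1641 nt upstream of Smad7 in replicate 2 (6.21-fold, −log10 q 6.33, 12 IP reads). No summit lay inside the body of any of the 9 genes but outside its exons, in either replicate. The strand and the origin of the signal were not tested.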

How the results depend on the processing

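Of 42 values under alternatives that kept both replicates, 36 moved by less than the limit set. The limit was a factor of 1.5 for a count and 1 SD between replicates for a share or median. This SD came from 2 replicates and was 21.4 percentage points for the share near GGAC, a wide limit. The 6 values that moved further were shares of summits. The share of summits at the stop codon, 19.4% over both replicates (31 summits), was 14.3% with a minimum fold enrichment of 4, 12.9% within 100 nt, 32.3% within 400 nt and 13.8% on the longest coding transcript. The share near GGAC, 54.8%, was 22.6% within 25 nt and 80.6% within 100 nt. A wider window holds more summits by construction. The number of genes with a peak in both replicates was 7 under each alternative except a minimum fold enrichment of 4, under which Smad2 had no peak and 6 were left. Under that minimum 21 of the 54 pathway genes had a peak in both replicates in place of 31, a fall close to the limit for counts. With a minimum −log10 q of 5 Smad6 had no peak, and with one of 3 the coding peak of Smad7 in replicate 2 was no longer called. With either replicate left out, 7 to 9 genes had a peak, with 14 to 17 peaks and a median fold enrichment of 4.78 to 5.79. Of the summits, 17.6% to 21.4% were at the stop codon and 41.2% to 71.4% near GGAC, and 32 to 33 pathway genes had a peak. The share of shared peaks needs both lists, so its values of 82.4% and 92.9% are only those of each replicate and no leave-out check. Without replicate 1 the genes were 9, since Smad4 and Smad6 had peaks in replicate 2. No paired analysis was possible because the input samples have no peak list and no test between groups was made. Reads limit the weakest calls, with 9 IP reads for Smad6, and the absence of Smad4 and Smad6 peaks in replicate 1 was not shown to be a difference in m6A.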

Other observations

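Of 5 relatives of the 9 genes, 1 had a peak in both replicates, beside 30.9% of all protein-coding genes, and a share so near the background is no result about the relatives. Smad9, which also transduces BMP signals, had none in either replicate, and neither had Skor1, Skor2 or Dach2. Dach1, a corepressor with homology to Ski, had 1 peak in replicate 1 and 2 in replicate 2, the strongest with 12.3-fold enrichment from 22 IP reads in replicate 1 and 6.37-fold from 11 IP reads in replicate 2. Whether the relatives without a peak were transcribed in these cells is not known from the peak lists.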
